A study of Mus musculus with 8 samples.

Results

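Cells that handle oxygen radicals carry enzymes that remove them. The mRNAs of 10 such enzymes were measured in cells sorted from mouse tumours and labelled as neutrophils. The genes were Sod1, Sod2, Cat, Gpx1, Prdx1, Prdx5, Txnrd1, Gclm, Srxn1 and Nqo1. They were chosen by name as superoxide dismutases, peroxidases and redox enzymes under the transcription factor Nrf2, with earlier results of these data known. They are 10 of the 25572 gene identifiers in the table, with 1 row each, and all 10 passed the filter on low counts that left 13575 genes for testing. RNA sequencing was made of 8 libraries, each from 150 pg of total RNA. The cells were labelled as neutrophils and came out of PyMT-N tumours grown in C57/B6 mice. The cells had been sorted by their surface ICAM1, also named CD54, an adhesion molecule that binds leukocyte integrins, and 4 libraries were ICAM1-high (cd54+ in the titles) and 4 ICAM1-low (cd54-). Both groups share the tumour type, the strain and the sorting by the same protein, and the titles number the libraries 1, 2, 3 and 5 in each. The labels name no treatment, genotype, age or sex, and do not say whether a library holds 1 animal or a pool. The p-values thus reflect how these libraries vary among themselves, and part of that spread may be technical.

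Neutrophils make superoxide with the NADPH oxidase, and superoxide dismutases turn it into hydrogen peroxide. Catalase, glutathione peroxidases and peroxiredoxins then remove the peroxide. The glutathione peroxidases and peroxiredoxins use electrons that reach them from NADPH through glutathione or thioredoxin, which catalase does not need. Nrf2, encoded by Nfe2l2 and held back by Keap1, binds antioxidant response elements in DNA and raises many genes of glutathione synthesis, the thioredoxin system and quinone reduction.

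Library totals ran from 15940080 to 21824788 estimated counts, and a count of 3, taken as the floor of detection for counting error only, stood for 0.121 to 0.263 CPM, the count scaled to a common library size. Icam1 ranged from 42.4 to 122 CPM over the ICAM1-high libraries, and ICAM1-low replicates 1, 2, 3 and 5 had 18.7, 9.25, 4.31 and 138 CPM. The library labelled ICAM1-low replicate 5 thus went against its label in the mRNA of the sorted protein, and values without it are given beside some of the results it moves. None of the 15 neutrophil markers was at 0 throughout a group, and 7 of them were lower in ICAM1-high and none higher. Their summed level was 8120 to 38800 CPM in ICAM1-low, the highest in replicate 5, and 1750 to 4900 CPM in ICAM1-high libraries. Of 17 macrophage markers 11 were higher in ICAM1-high and none lower, with sums of 4270 to 4980 CPM in ICAM1-low and 13400 to 27900 CPM in ICAM1-high. Every ICAM1-high library thus had a macrophage sum above its neutrophil sum, which goes against the neutrophil label. In every ICAM1-low library the neutrophil sum was above the macrophage sum. Sums over different genes do not give shares of cells. Monocyte markers (9 genes, 3 higher and 1 lower) summed to 7130 to 15400 CPM in ICAM1-low and 2780 to 5270 CPM in ICAM1-high. The monocyte sum was above the neutrophil sum in ICAM1-low replicates 1 (14300 against 14100 CPM) and 3 (13900 against 8120 CPM). It was below it in ICAM1-low replicates 2 (15400 against 17500 CPM) and 5 (7130 against 38800 CPM). In ICAM1-high the monocyte sum was the higher in replicates 1, 3 and 5 and the lower in replicate 2. Neutrophil markers were thus not the largest sum in ICAM1-low replicates 1 and 3 either. Fibroblast markers (11 genes, none past the threshold) summed to 1920 to 3670 and 679 to 2960 CPM, and B cell and plasma cell markers (9 genes, none) to 51.4 to 429 and 283 to 2190 CPM, in that order of groups. For T and NK cells (13 genes, 1 higher) the sums were 2.11 to 65 and 86.2 to 392 CPM, with Gzma at 0 in all ICAM1-low libraries. Dendritic cell sums (10 genes, none) were 20.9 to 107 and 58.6 to 195 CPM, with Flt3 at 0 in ICAM1-low. Endothelial sums (8 genes, none) were 1.6 to 26.9 and 20.4 to 67.8 CPM with Tek at 0 in ICAM1-low, and mast cell, basophil and eosinophil sums (9 genes, none) 63.2 to 156 and 16 to 50 CPM with Fcer1a and Epx each at 0 in a group. Epithelial and mammary tumour sums (10 of 11 genes in the table, none) were 0.373 to 79 and 8.17 to 29.6 CPM with Krt14 and Cldn4 each at 0 in a group. Erythroid markers, of interest because red cells are rich in Cat and peroxiredoxins, were nearly absent, with sums of 0 to 11.9 CPM in ICAM1-low and 0 to 25.8 CPM in ICAM1-high (7 of 10 genes in the table, with Slc4a1 and Epb42 at 0 in ICAM1-high). The part of these other cells in the differences below was not tested, and in such bulk samples fewer cells of a type and less RNA per cell cannot be told apart.

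None of the 10 antioxidant enzymes passed the threshold between ICAM1-high and ICAM1-low libraries, while 1.50% of all genes tested did (edgeR's quasi-likelihood F test, p under 0.05 after Benjamini-Hochberg adjustment). Gclm, Srxn1 and Nqo1 had fitted levels lower in ICAM1-high under every setting that tested them, and the sign of each of the other 7 turned under at least 1. At an unadjusted p under 0.05 only Nqo1 was counted, on the lower side, where 8.96% of all genes lay, and none of the 10 on the higher side, where 7.96% lay. DESeq2 and limma-voom also called 0 of the 10 (DESeq2 gave no adjusted p for Txnrd1). Over the 10 genes 4 log2 fold changes were positive and the median was -0.15. Over all genes tested 47.7% were positive and the median was -0.07.

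To compare the enzymes with each other, counts were divided by gene length and scaled to the same total in every library (TPM). Prdx1 stood first and Nqo1 last. Prdx1, a cytosolic peroxiredoxin, averaged 1410 TPM over the 8 libraries, and Gpx1, the selenium-containing glutathione peroxidase of the cytosol and mitochondria, averaged 891 TPM. Prdx1 was above Gpx1 in 6 of 8 libraries, so the order of these neighbours was not the same in every library. Prdx5, a peroxiredoxin of mitochondria, peroxisomes and cytosol, followed with 406 TPM and Sod1, the copper and zinc superoxide dismutase of the cytosol, with 154 TPM. Gpx1 exceeded Prdx5, and Prdx5 exceeded Sod1, in 8 of 8 libraries. Txnrd1 (77.1 TPM), Cat (55.6 TPM) and Sod2 (55.4 TPM) did not differ beyond their spread, with Txnrd1 above Cat and Cat above Sod2 in 4 of 8 libraries each. Sod1 was above Txnrd1, and Sod2 above Gclm (33.7 TPM), in 7 of 8 libraries. The lowest were Srxn1 (19.2 TPM), under Gclm in 8 of 8 libraries, and Nqo1 (6.17 TPM), under Srxn1 in 8 of 8.

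**Figure D1:**
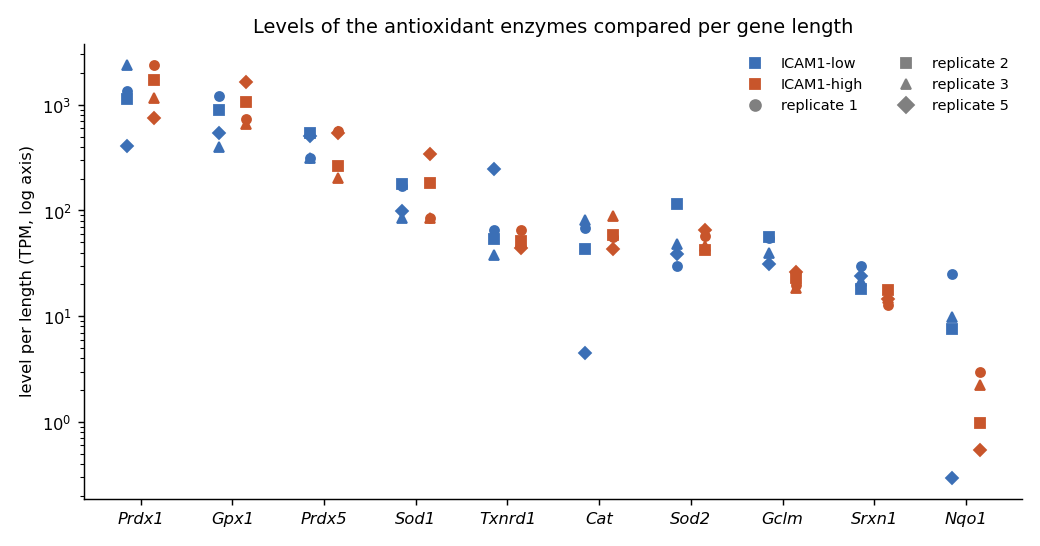
Level of each antioxidant enzyme per gene length (TPM, log axis), 1 point per library, blue for ICAM1-low and orange for ICAM1-high, with the marker shape giving the replicate number. The genes are ordered by their mean over 8 libraries, from Prdx1 at 1410 TPM to Nqo1 at 6.17 TPM, and the ICAM1-low replicate 5 point lies high for Txnrd1 and low for Cat and Nqo1.

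Neither superoxide dismutase passed the threshold between the groups. Sod1 was at 62.4, 64.8, 32.3 and 48.2 CPM in ICAM1-low replicates 1, 2, 3 and 5 and at 35.6, 64.3, 26.5 and 140 CPM in ICAM1-high. The groups overlapped, and the only library far up was ICAM1-high replicate 5. Its log2 fold change was 0.36 ± 0.56 (SE, n = 4 against 4; 95% interval -0.87 to 1.59; edgeR adjusted p = 0.787), and without ICAM1-high replicate 5 it was -0.28. Sod2, the manganese superoxide dismutase of mitochondria and a gene known to respond to inflammatory cytokines, was at 20.7, 79.2, 34.6 and 35.7 CPM in ICAM1-low and at 45.7, 28, 27.4 and 51.5 CPM in ICAM1-high. Both the lowest and the highest value of Sod2 were in ICAM1-low libraries. The log2 fold change was -0.16 ± 0.52 (95% interval -1.31 to 0.99; edgeR adjusted p = 0.91), and it was 0.33 without ICAM1-low replicate 2. For both genes the interval reaches past 1 on the log2 scale, a 2-fold difference, in 1 direction, so a missed threshold does not show equal levels.

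Among the peroxide-removing enzymes the groups overlapped for all 4 genes. Cat, the catalase of peroxisomes, was at 102, 63.8, 124 and 8.86 CPM in ICAM1-low and at 96.6, 84.4, 113 and 72.2 CPM in ICAM1-high. It lay between 63.8 and 124 CPM in 7 libraries, and ICAM1-low replicate 5 was 7.2-fold below the lowest of these. The log2 fold change was 0.29 ± 0.64 (95% interval -1.10 to 1.68; edgeR adjusted p = 0.854) and -0.07 without that library. Gpx1 was at 475, 350, 163 and 287 CPM in ICAM1-low and at 335, 409, 222 and 727 CPM in ICAM1-high, which gave a log2 change of 0.41 ± 0.50 (95% interval -0.68 to 1.50; edgeR adjusted p = 0.719). In both groups replicate 3 held the least Gpx1, and ICAM1-high replicate 5 the most.

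Prdx1 was at 1080, 907, 1980 and 439 CPM in ICAM1-low and at 2200, 1340, 790 and 683 CPM in ICAM1-high. It alone made up 24.1% to 75.7% of the summed CPM of the 10 genes, a share not corrected for gene length. Replicate 5 had the least Prdx1 in both groups. Its log2 fold change of 0.19 ± 0.57 (95% interval -1.07 to 1.44; edgeR adjusted p = 0.901) was -0.24 without ICAM1-high replicate 1 and -0.07 without ICAM1-low replicate 5. Prdx5 was at 136, 232, 139 and 290 CPM in ICAM1-low and at 281, 108, 74.1 and 262 CPM in ICAM1-high. The ranges of Prdx5 overlapped, although ICAM1-high replicates 2 and 3 were below every ICAM1-low library. The log2 fold change was -0.14 ± 0.52 (95% interval -1.27 to 1; edgeR adjusted p = 0.921), with a sign that turned in 4 of 17 other settings.

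The thioredoxin branch had 2 members, neither past the threshold. Txnrd1, the cytosolic thioredoxin reductase that passes electrons from NADPH to thioredoxin, was at 126, 104, 75.8 and 637 CPM in ICAM1-low and at 145, 95.8, 82.2 and 96.3 CPM in ICAM1-high. The level of 637 CPM in ICAM1-low replicate 5 was 4.38-fold above the next highest library, and the other 7 lay between 75.8 and 145 CPM without order by group. The fitted log2 fold change of -1.17 ± 0.66 (95% interval -2.61 to 0.28; edgeR adjusted p = 0.399) went to 0.04 without that library. With all libraries scaled by library size only it was -0.77. Srxn1, the sulfiredoxin that repairs over-oxidised peroxiredoxins, was at 44.7, 26.5, 33.5 and 48.2 CPM in ICAM1-low and at 21.7, 25.7, 19.1 and 24.4 CPM in ICAM1-high. All 4 ICAM1-high libraries were below all 4 ICAM1-low libraries, although ICAM1-low replicate 2 and ICAM1-high replicate 2 were close. The log2 fold change was -0.75 ± 0.46 (95% interval -1.76 to 0.26; edgeR adjusted p = 0.434), a level 1.68-fold lower in ICAM1-high, and it was -0.89 to -0.51 over 17 other settings.

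Gclm, the modifier subunit of glutamate-cysteine ligase in glutathione synthesis, was lower in each ICAM1-high library. It was at 34, 34.3, 25.3 and 25.4 CPM in ICAM1-low (29.8 ± 5.07, SD, n = 4) and at 13.9, 13.7, 9.66 and 18.2 CPM in ICAM1-high (13.8 ± 3.48). Every ICAM1-high library was below every ICAM1-low library. The log2 fold change was -1.10 ± 0.51 (95% interval -2.21 to 0.0043; edgeR adjusted p = 0.298), a level 2.15-fold lower in ICAM1-high, and it stayed between -1.32 and -0.91 over 17 other settings with adjusted p from 0.0982 to 0.491. Gclm and Srxn1 were the only 2 of the 10 whose groups did not overlap with ICAM1-high below, an arrangement that 3.89% of all genes tested showed. For none of the 10 were all ICAM1-high libraries above, as they were for 7.51% of all genes.

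Gclc, the catalytic partner of Gclm, was added after its values were seen, since both subunits form 1 enzyme. It was at 10.2, 38.4, 2.77 and 29 CPM in ICAM1-low and at 41.4, 14.6, 38.7 and 23 CPM in ICAM1-high, and its fitted log2 change was 0.55 ± 0.75 (edgeR adjusted p = 0.755), so the subunits had opposite signs. The ratio of Gclm to Gclc in TPM, which does not depend on library scaling, was 9.95, 2.69, 27.4 and 2.63 in ICAM1-low and 1.01, 2.82, 0.75 and 2.37 in ICAM1-high. ICAM1-high replicate 2 lay above ICAM1-low replicates 2 and 5, so the groups overlapped. The log2 ratio differed by -2.15 between the groups and did not pass the threshold (two-sided exact permutation test over 70 assignments, p = 0.0857, where the smallest possible p is 0.0286). The pair was picked with its values known, so this p is descriptive only.

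Nqo1, the NAD(P)H quinone reductase and a widely used readout of Nrf2 activity, had the largest fitted difference of the 10 and the lowest level. It was at 22.4, 6.76, 9.05 and 0.351 CPM in ICAM1-low and at 3.09, 0.846, 1.69 and 0.552 CPM in ICAM1-high. ICAM1-low replicates 1, 2 and 3 were above all ICAM1-high libraries, and ICAM1-low replicate 5, with 4 estimated counts, was below all of them. The log2 fold change was -2.64 ± 1.16 (95% interval -5.18 to -0.09; edgeR adjusted p = 0.281), a level 6.23-fold lower in ICAM1-high. It was -3.04 without ICAM1-low replicate 5 (edgeR adjusted p = 0.0876) and -1.80 without ICAM1-low replicate 1 (edgeR adjusted p = 0.516). Over 16 other settings the adjusted p was 0.0801 to 0.516.

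**Figure D2:**
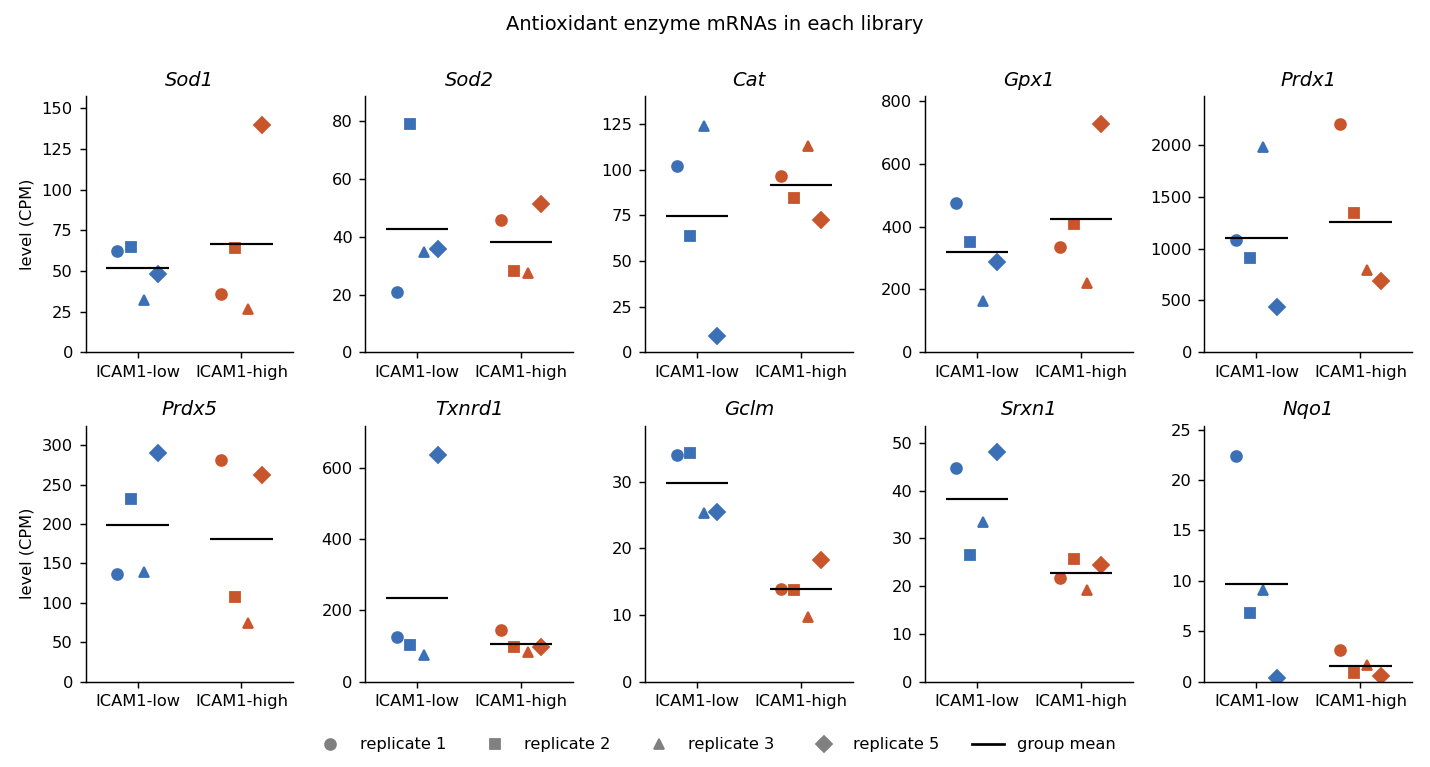
Level in CPM (linear axis from 0) of the 10 antioxidant enzymes in each library, blue for ICAM1-low and orange for ICAM1-high, with the marker shape giving the replicate number and the line the mean of 4 libraries. The groups are apart for Gclm (25.3 to 34.3 against 9.66 to 18.2 CPM) and Srxn1 (26.5 to 48.2 against 19.1 to 25.7 CPM), while for Txnrd1 a single ICAM1-low library at 637 CPM carries the difference of the means.

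Since Gclm, Srxn1 and Nqo1 are textbook targets of Nrf2, the 250 bases before the RefSeq start of each (build GRCm38.p6) are shown, 5′ to 3′ along the gene, with the core of the antioxidant response element in capitals. The core was searched on both strands in the forms TGACNNNGC and TGAGNNNGC. Gclm lies on the plus strand with the shown stretch at chr3:122245307-122245556, Srxn1 on the plus strand at chr2:152105274-152105523 and Nqo1 on the minus strand at chr8:107403206-107403455.
Gclm: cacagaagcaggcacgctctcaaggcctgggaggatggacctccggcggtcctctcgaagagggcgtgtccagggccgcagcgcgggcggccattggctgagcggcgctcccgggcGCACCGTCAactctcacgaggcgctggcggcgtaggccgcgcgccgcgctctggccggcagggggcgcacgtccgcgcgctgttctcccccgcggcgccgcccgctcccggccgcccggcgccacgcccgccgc
Srxn1: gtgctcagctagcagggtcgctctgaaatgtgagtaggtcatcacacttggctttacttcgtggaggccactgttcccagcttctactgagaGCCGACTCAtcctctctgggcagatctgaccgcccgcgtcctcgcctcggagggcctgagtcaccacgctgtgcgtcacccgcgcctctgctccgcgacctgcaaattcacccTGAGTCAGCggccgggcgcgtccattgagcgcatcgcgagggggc
Nqo1: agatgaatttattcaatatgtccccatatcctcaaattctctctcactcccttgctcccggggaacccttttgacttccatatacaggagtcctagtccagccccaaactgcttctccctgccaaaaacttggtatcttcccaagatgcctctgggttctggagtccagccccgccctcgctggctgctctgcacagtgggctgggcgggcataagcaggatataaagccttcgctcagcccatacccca

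The stretch of Gclm holds 1 match, 134 to 126 bases before the start, which reads TGACGGTGC on the opposite strand. Srxn1 has 2 matches, TGAGTCGGC on the opposite strand 158 to 150 bases before the start and TGAGTCAGC on the gene's strand 45 to 37 bases before it. The latter contains TGAGTCA, the letters that AP-1 factors bind. TGAGTCA also occurs elsewhere in the stretch of Srxn1, in small letters, outside the matches. In the stretch of Nqo1 neither TGAGTCA nor a match to the core occurs, and bases further upstream were not searched for any gene. RefSeq windows were found for all 10 genes (12 windows, of which Txnrd1 has 3), and 5 of the 12 held a match. Besides Gclm and Srxn1 these were Sod1 (TGACCACGC), Prdx1 (TGACTCAGC, which contains the AP-1 letters too) and the second window of Txnrd1 (TGACAAAGC), all on the opposite strand. Of all 32851 windows of the same length 23% held at least 1 match (10.2% TGACNNNGC and 14.4% TGAGNNNGC), and 3.18% held 2 or more. Matches thus occurred in genes with separate groups (Gclm, Srxn1) and in genes whose groups overlapped (Sod1, Prdx1, Txnrd1). A match describes letters only and shows no binding.

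Upper-quartile scaling and library sizes alone shifted the median of all genes on the log2 scale from -0.07 to 0.06 and 0.17, and the differences of the members moved with it. Relative to that shift no sign of Gclm, Srxn1 or Nqo1 changed.

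**Figure D3:**
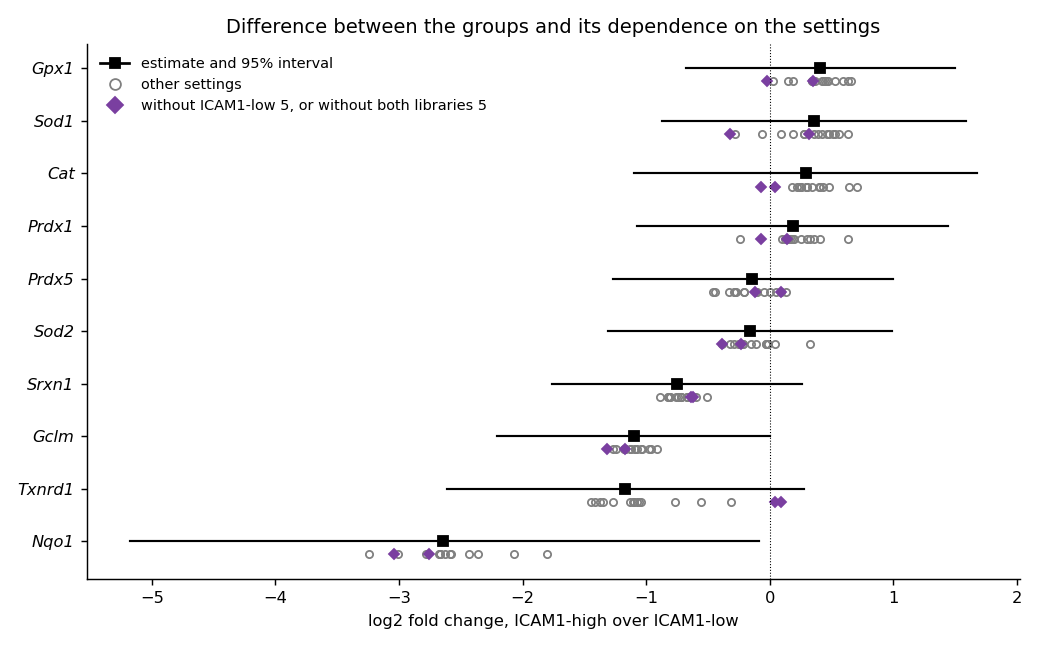
Log2 fold change of each enzyme, ICAM1-high over ICAM1-low, as black squares with 95% intervals, and below each its values under the other settings as grey circles, with purple diamonds for the fits without ICAM1-low replicate 5 or without both libraries numbered 5. The Txnrd1 value of -1.17 moves to 0.04 and 0.09 in those fits, while Gclm stays between -1.32 and -0.91 in all settings.

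The other redox genes were read from 7 lists ordered by role, holding 92 further genes of which 91 were in the table (92 identifiers, since Nnt has 2) and 89 identifiers were tested. The lists were chosen with earlier results of these data known, so their counts beside those of all genes are descriptive. Of these 89, 2 fell and none rose, against 0.273% and 1.22% of all genes, and their median log2 fold change was -0.18, with 39 positive. At an unadjusted p under 0.05 there were 14 lower and 6 higher of 89, where 8.96% and 7.96% of all genes lay. All ICAM1-high libraries were above all ICAM1-low libraries for 8 of the 89 and below them for 4, against 7.51% and 3.89% of all genes. Both genes that fell belong to glutathione metabolism. Mgst1, a membrane-bound glutathione transferase, was at 70.7, 192, 98.2 and 117 CPM in ICAM1-low and at 34.9, 24.6, 19.7 and 12 CPM in ICAM1-high (log2 fold change -2.39 ± 0.51, SE; edgeR adjusted p = 0.0451). Ggt1, the gamma-glutamyltransferase that breaks down glutathione outside cells, was at 17.1, 21.1, 12.8 and 12.2 CPM in ICAM1-low and at 0.19, 1.65, 0.869 and 0.883 CPM in ICAM1-high (log2 fold change -4.12 ± 0.88; edgeR adjusted p = 0.0456). The groups were wide apart for both genes. Without ICAM1-low replicate 5 both stayed past the threshold (edgeR adjusted p = 0.0332 and 0.0331), and leaving out any other single library ended both calls, with adjusted p of 0.056 to 0.135 for Mgst1 and 0.0618 to 0.138 for Ggt1. The fold changes held their sign and moved little when 1 library was left out, from -2.67 to -2.06 for Mgst1 and from -4.59 to -3.80 for Ggt1 on the log2 scale. Without both libraries numbered 5 the log2 fold changes were -2.17 for Mgst1 and -4.19 for Ggt1 (edgeR adjusted p = 0.0512 and 0.0581). The neutrophil marker sums given above also ran higher in ICAM1-low, and their part in these differences was not tested.

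Within the glutathione list, of 18 further genes tested, 2 fell, none rose and 6 were positive (median -0.81). Gsr, the glutathione reductase, was at 165, 250, 87.6 and 944 CPM in ICAM1-low and at 52.2, 86.4, 72.7 and 68.5 CPM in ICAM1-high (log2 fold change -2.37 ± 0.69; edgeR adjusted p = 0.12). The groups were apart by little at ICAM1-low replicate 3, and replicate 5 was far above the rest. Without that replicate the log2 fold change of Gsr was -1.26 ± 0.43 (edgeR adjusted p = 0.123). In the NADPH-supplying list none of 12 passed the threshold (median 0.36, 8 positive). G6pdx, the first enzyme of the pentose phosphate pathway, was at 153, 208, 96.4 and 223 CPM in ICAM1-low and at 47.7, 44, 83.8 and 73.5 CPM in ICAM1-high, without overlap (log2 fold change -1.45 ± 0.44; edgeR adjusted p = 0.135). Idh2, the mitochondrial NADP-dependent isocitrate dehydrogenase, had all 4 ICAM1-high libraries on top (31.9 to 71.8 against 6.14 to 26.1 CPM; edgeR adjusted p = 0.26). Me1, the cytosolic malic enzyme and another Nrf2 target, averaged 52.6 CPM in ICAM1-low and 9.71 CPM in ICAM1-high with overlap (edgeR adjusted p = 0.293).

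**Figure D4:**
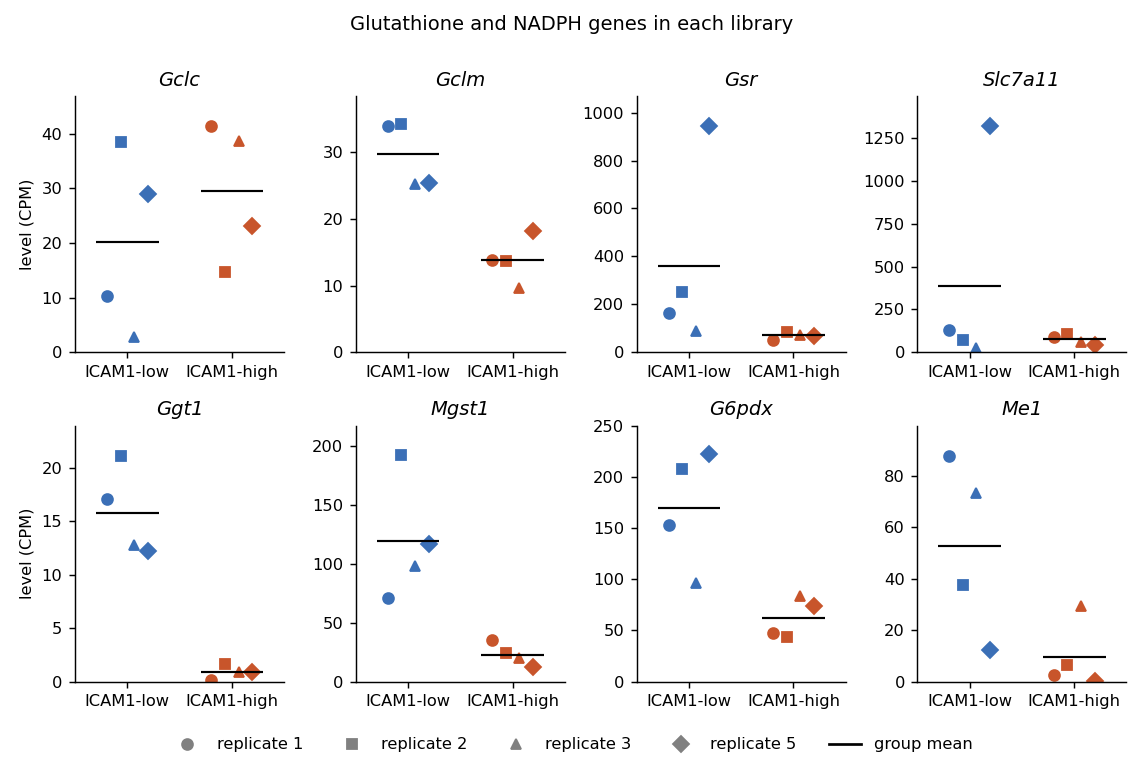
Level in CPM (linear axis from 0) of 8 genes of glutathione synthesis, recycling and NADPH supply in each library, blue for ICAM1-low and orange for ICAM1-high, with the marker shape giving the replicate number and the line the mean of 4 libraries. Ggt1, Mgst1, Gclm, Gsr and G6pdx have all ICAM1-high libraries below all ICAM1-low libraries, as had 3.89% of all genes tested (the 8 genes were chosen with their values known), and Gsr and Slc7a11 reach 944 and 1320 CPM in ICAM1-low replicate 5.

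In the other 5 lists no gene passed the threshold. Of the superoxide dismutase list, Ccs, the copper chaperone of Sod1, averaged 3.6 CPM in ICAM1-low and 11.5 CPM in ICAM1-high and was higher in 4 of 4 same-numbered pairs, as were 14.7% of all genes (edgeR adjusted p = 0.418), and Sod3, the secreted dismutase, averaged 3.11 and 1.59 CPM (edgeR adjusted p = 0.743). The groups overlapped for both genes. In ICAM1-low replicate 5 Ccs had 2 estimated counts and Sod3 had 1, below the floor of 3. Of 7 further peroxide-removing enzymes tested 4 were positive (median 0.27). The secreted peroxidase gene Gpx3 averaged 2.94 CPM in ICAM1-low and 13.2 CPM in ICAM1-high, Gpx8 of the endoplasmic reticulum 12.2 and 3.29 CPM, and Prdx6, a peroxiredoxin that uses glutathione, 337 and 170 CPM (edgeR adjusted p of 0.281, 0.32 and 0.333). Gpx3 was at 6.08, 6.36, 4.59 and 35.6 CPM in ICAM1-high, so replicate 5 raised that mean. ICAM1-low replicate 1, with 4.92 CPM, was above ICAM1-high replicate 3. Prdx6 had a log2 fold change of -0.98, and of -0.37 without ICAM1-low replicate 5, where the other 3 ICAM1-low libraries averaged 220 CPM. Of 13 further thioredoxin and glutaredoxin genes 5 were positive (median -0.18). Msrb1 and Msra, which repair oxidised methionine, averaged 158 and 23.9 CPM in ICAM1-low and 45 and 6.78 CPM in ICAM1-high (edgeR adjusted p = 0.19 and 0.274). Their log2 fold changes of -1.81 and -1.82 were -1.08 and -1.12 without ICAM1-low replicate 5. Txnrd2, the mitochondrial counterpart of Txnrd1, lay the other way, with 0.439 to 8.09 CPM in ICAM1-low and 8.65 to 27.2 CPM in ICAM1-high and no overlap (edgeR adjusted p = 0.267).

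Of 14 genes for Nrf2 and its regulators 5 were positive (median -0.19). Nfe2l2 itself averaged 1090 CPM in ICAM1-low and 786 CPM in ICAM1-high (edgeR adjusted p = 0.763), and Keap1 44 and 38.9 CPM (edgeR adjusted p = 0.912). Without ICAM1-low replicate 5 the ICAM1-low mean of Nfe2l2 was 518 CPM, and its log2 fold change turned from -0.47 to 0.60 ± 0.44 (edgeR adjusted p = 0.487). The small Maf gene Maff averaged 46.6 and 9.9 CPM, Nfe2l1, an Nrf2 relative, 119 and 57.5 CPM, and Park7, a redox-sensitive protein gene, 4.85 and 13.1 CPM (edgeR adjusted p of 0.267, 0.375 and 0.329). The difference of Maff rested on ICAM1-low replicate 5, without which the ICAM1-low mean was 10.8 CPM and the log2 fold change went from -2.23 to -0.13. Of 23 further Nrf2 targets 10 were positive (median -0.05). Sesn2, a sestrin, averaged 201 CPM in ICAM1-low and 49.7 CPM in ICAM1-high, and aldose reductase Akr1b3 and biliverdin reductase Blvrb lay the other way with 35 and 103 CPM and 5.66 and 21.1 CPM (edgeR adjusted p of 0.145, 0.156 and 0.195). Sesn2 had a log2 fold change of -2.02, and of -1.07 without ICAM1-low replicate 5, where the ICAM1-low mean was 105 CPM. Akr1b3 and Blvrb were without overlap between the groups. Nrf2 target genes were therefore found on both sides of 0, and Nqo1 was the lowest of its list but for Slc6a9 (log2 fold change -2.65).

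**Figure D5:**
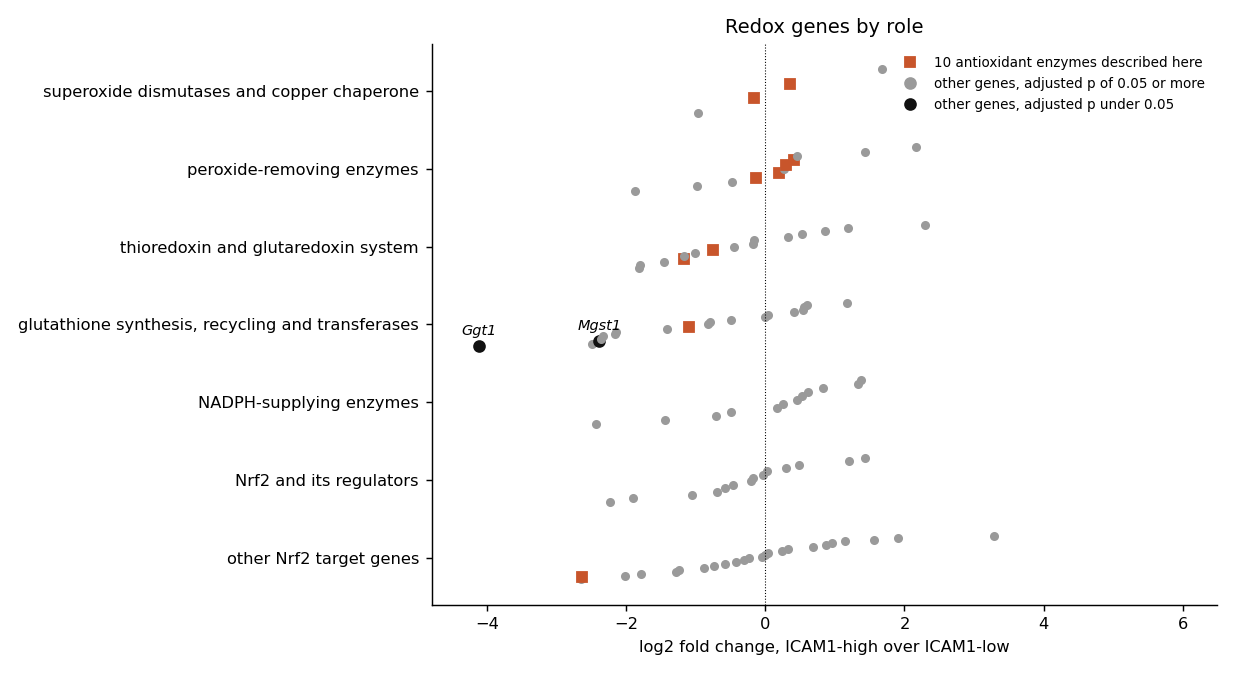
Log2 fold change, ICAM1-high over ICAM1-low, of all tested genes of the 7 redox lists, 1 point per gene, with orange squares for the 10 antioxidant enzymes, black for the 2 other genes past the threshold and grey for the rest. Ggt1 (-4.12) and Mgst1 (-2.39) are the genes past the threshold, and both are in the glutathione list.

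The library labelled ICAM1-low replicate 5 was often at an end of the range. It held the highest level of 3 of the 10 genes (Prdx5, Txnrd1, Srxn1) and the lowest of 3 others (Cat, Prdx1, Nqo1). ICAM1-high replicate 3 held the lowest level of 4 (Sod1, Prdx5, Gclm, Srxn1) and the highest of none. Over the 99 redox genes tested, ICAM1-low replicate 5 was highest for 30 (30.3%, against 21.1% of all genes) and lowest for 26 (26.3%, against 24.4%). ICAM1-high replicate 3 was lowest for 12 (12.1%, against 5.73%) and highest for 9 (9.09%, against 7.45%).

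Further redox genes stood out in that library, and those named here were picked after their values were seen. Slc7a11, the cystine carrier that feeds glutathione synthesis, was at 1320 CPM there and at 26.4 to 129 CPM elsewhere. Maff was at 154 CPM against at most 13.9 CPM, Osgin1 at 107 against at most 18.8 CPM, Gsr at 944 against at most 250 CPM and Sesn2 at 491 against at most 145 CPM. Without that library the log2 fold change of Slc7a11 went from -2.34 to 0.01 ± 0.55, and that of Osgin1 from -1.29 to 0.46 ± 0.77. Nfe2l2 was at 2810 CPM, 2.41-fold above the next highest library. Txnrd1 thus peaked together with Slc7a11, Gsr, Osgin1 and Sesn2, whereas Gclm (25.4 CPM) was within the range of the other ICAM1-low libraries and Nqo1 was at its lowest. In the same library the neutrophil marker sum was 38800 CPM, the highest of all, and the part of cell content in this pattern was not tested.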

How the data were processed

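RNA was measured in 8 libraries, 4 ICAM1-high and 4 ICAM1-low, grouped by their titles. The authors deposited 1 table of estimated counts with a length for each gene. The submitters' processing notes name Trim Galore 0.6.6, Salmon 1.9.0 and the build GRCm39 (mm39). The sources used here do not name the annotation or how transcripts were summed, so reads shared with pseudogene copies may be split uncertainly. Each of 25572 gene identifiers was kept once (88 were repeated with identical values), and 6482 listed without a symbol were named from a reference table.

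Counts were rounded, filtered with filterByExpr (13575 kept), scaled by TMM and tested with edgeR 4.0.16 in R 4.3.3 (glmQLFTest, robust, group as the only term). The standard error is the log2 fold change divided by the square root of F, and intervals use the test's t quantile at 95%. CPM use the library size of the kept genes times its TMM factor. That factor was 0.7177 for ICAM1-low replicate 5 and 0.9563 to 1.169 for the other libraries. It raises the CPM of ICAM1-low replicate 5 above those from library size alone. TPM were computed from the deposited counts and lengths, since levels of different genes compare only per length. Each library had 15940080 to 21824788 counts made from 150 pg of RNA, so a count need not be a molecule.

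The members, the 7 redox lists and the 11 marker lists were chosen with earlier results of these data known. Named were the 10 members, any list gene past the threshold and the 3 of each list with the smallest p; others are said to be added after their values were seen, as were Gclc, Nfe2l2, Keap1, Slc6a9, Slc7a11, Osgin1, Fth1, Ftl1 and Hmox1. Other settings tried were upper-quartile and RLE scaling, no scaling beyond library size, limma-voom (limma 3.58.1) and DESeq2 1.42.0, no filter, a filter of 10 CPM in 4 libraries, a replicate block, and leaving out each library or both numbered 5. Upstream sequences come from a RefSeq table of another build, GRCm38.p6, matched by symbol, and no position was joined to the counts.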

Additional observations from a re-analysis of the deposited data

Results flagged for a closer look

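Each member was examined for a library far from the others of its group, by the gap to the nearest library over the range of the group, with Dixon's 95% critical value as the limit. Of 20 groups of 4 values, 1 was beyond it, and chance gives about 1 in 20 such groups. Txnrd1 stood at 637 CPM in ICAM1-low replicate 5, the nearest library of that group being at 126 CPM, a gap of 0.91 of the range.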

How the results depend on the processing

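None of the 10 antioxidant enzymes was called under any of the 17 alternatives. Counts over all genes were 166 higher and 37 lower and moved much more. They were 584 and 642 with DESeq2, 480 and 376 with limma-voom and 280 and 261 with the replicate block. Library sizes only gave 258 higher, no filter 120 lower, the stricter filter 61 lower (it left Nqo1 and Ggt1 out) and leaving out both libraries numbered 5 gave 190 lower. Leaving out 1 library gave 4 to 337 higher and 0 to 241 lower. The other redox genes called lower, 2 in the fit reported, were 1 with library sizes only and with the stricter filter, 6 with DESeq2 (and 1 higher), 5 with limma-voom, 0 without both libraries numbered 5 and 0 to 3 when 1 library was left out. With the replicate block they were 3 (Ggt1, Mgst1 and Me1).

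Signs turned as follows, none past the threshold on either side. With library sizes only Sod2 was 0.04 and Prdx5 0.09, and with limma-voom Sod1 was -0.06. When 1 library was left out, Sod1 ran from -0.28 (without ICAM1-high replicate 5) to 0.63, Sod2 from -0.39 to 0.33 (without ICAM1-low replicate 2) and Prdx1 from -0.24 (without ICAM1-high replicate 1) to 0.63. Prdx5 ran from -0.46 to 0.13 (without ICAM1-high replicate 3; 0.05 without replicate 2). Without ICAM1-low replicate 5 Cat was -0.07, Prdx1 -0.07, Prdx5 0.09 and Txnrd1 0.04, the other end of the range being 0.64 for Cat and -1.45 for Txnrd1. Without both libraries numbered 5 Sod1 was -0.32, Gpx1 -0.02 and Txnrd1 0.09. Apart from the samples left out, the cause was not tested.

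The labels do not say what same-numbered libraries share, so the numbers were not used as pairs in the main fit. Deviations of same-numbered libraries from their group means correlated across genes at -0.16, 0.11, 0.16 and 0.37 for numbers 1, 2, 3 and 5. For unlike numbers the correlations ran from -0.36 to 0.17. So few values cannot decide whether the libraries are paired, and the fit with the replicate block is given above. With 4 libraries a group and a biological coefficient of variation of 0.858, the 95% intervals of the members were at least 2 log2 units wide.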

Other observations

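Values are given for 3 genes of iron and heme handling that Nrf2 also controls, picked after their values were seen, and none passed the threshold. The ferritin heavy chain gene Fth1 averaged 6500 CPM in ICAM1-low and 3530 CPM in ICAM1-high and was lower there in 4 of 4 pairs of equal number, as were 12.4% of all genes tested (log2 fold change -0.88 ± 0.59, SE, n = 4 against 4; edgeR adjusted p = 0.484). The light chain gene Ftl1 averaged 1850 and 3610 CPM and was higher in 3 of 4 pairs (log2 fold change 0.96 ± 0.53; edgeR adjusted p = 0.384). Ftl1 was at 6900, 2740, 2020 and 2760 CPM in ICAM1-high, so replicate 1 raised that mean. Both ferritin genes have many processed copies in the genome, so their counts are uncertain. Hmox1, the inducible heme oxygenase, averaged 35.1 ± 25 CPM in ICAM1-low and 41.6 ± 17.8 CPM in ICAM1-high (SD, n = 4; edgeR adjusted p = 0.888).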
